A study of Mus musculus with 12 samples.

Results

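The 10 genes described here encode transcription factors that make and keep group 2 innate lymphoid cells (ILC2s), lymphocytes that carry no rearranged antigen receptor and release type 2 cytokines. They are Gata3, Rora, Bcl11b, Tcf7, Id2, Gfi1, Zbtb16, Maf, Tox and Nfil3. The members were taken by name, and the deposited estimates of their transcripts were summed per gene. All 10 were found among the 29542 genes of the files, and all 10 passed the filter on low counts that left 14431 genes for testing. ILC2s were sorted from skin-draining lymph nodes of irradiated (950 cGy) CD45.1 congenic recipients, which carried a mixture of CD45.2 Rag1-/- marrow and CD90.1 wild-type (WT) marrow, so both genotypes developed within mixed chimeras. All samples are labelled strain C57BL6, and all chimeras had received recombinant mouse IL-33 (30 ng into each cheek and 240 ng into the peritoneum, daily for 7 days) to expand these cells. The 4 groups of 3 libraries were Rag1 KO at 20 weeks after transplant, WT at 20 weeks, Rag1 KO at 8 weeks and WT at 8 weeks. The series text puts the later time at 12 weeks; here it follows the sample labels, which say 20. The labels give no age, no sort gates and no word on whether replicates are separate animals, and p-values therefore cover only the spread between these samples.

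ILC2s arise from lymphoid progenitors in steps that these factors control. NFIL3, TOX and TCF-1 (the product of Tcf7) act early, ID2 binds E proteins and so keeps the T and B cell programmes from running, and PLZF (the product of Zbtb16) marks a progenitor stage that mature ILC2s leave. GATA3, the zinc finger factor of type 2 lymphocytes, together with RORα, BCL11B and GFI1, then sets up and maintains the ILC2 fate, while c-MAF is a bZIP factor of type 2 cytokine-producing T cells that is also present in activated ILC2s.

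For Rora and Maf, the estimates were spread over pairs of coding transcripts that differ at one end of the protein, so the stretches that tell them apart are shown first. Bases in capitals are the 15 bases both transcripts of a gene share, and bases in lower case belong to the named transcript alone; the sequences are those of GENCODE M21 on GRCm38, 5′ to 3′ on the gene's own strand. Rora-201 has 196 coding bases of its own at the start (the last 90 are shown), Rora-202 has 28, and the following 1376 coding bases are common to both.
Rora-201: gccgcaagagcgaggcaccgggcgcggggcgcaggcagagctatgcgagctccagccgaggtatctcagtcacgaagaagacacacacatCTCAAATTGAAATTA
Rora-202: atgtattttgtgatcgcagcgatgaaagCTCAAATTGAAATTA
The 2 Maf transcripts have 1111 coding bases in common and part at the end, where Maf-201 goes on for 32 bases and Maf-202 for 2, the last letters of its stop codon.
Maf-201: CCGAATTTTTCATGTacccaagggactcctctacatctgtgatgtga
Maf-202: CCGAATTTTTCATGTga

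Promoter windows of RefSeq on GRCm38.p6 (250 bases before to 50 after the start site) were at hand for 7 of the 10 members, as 9 windows. A window of Gata3 and one of Tcf7 are shown as examples, chosen with their motif matches known; their start sites lie 0 and 24 bases from the annotated start of each gene's leading transcript. Windows of Gfi1 (0 bases), Id2 (0 bases) and Nfil3 (34 bases), not printed, also lie at a leading transcript's start, and none of them holds an ETS core. The ETS core counted for Gfi1 below is in its other window, whose start site lies 1462 bases from the leading transcript's start. Capitals mark the ETS core CCGGAA and the ROR element core AGGTCA, which both lie on the opposite strand here and are printed as their reverse complement; other motifs are not marked.
Gata3, chr2:9878551-9878850, minus strand: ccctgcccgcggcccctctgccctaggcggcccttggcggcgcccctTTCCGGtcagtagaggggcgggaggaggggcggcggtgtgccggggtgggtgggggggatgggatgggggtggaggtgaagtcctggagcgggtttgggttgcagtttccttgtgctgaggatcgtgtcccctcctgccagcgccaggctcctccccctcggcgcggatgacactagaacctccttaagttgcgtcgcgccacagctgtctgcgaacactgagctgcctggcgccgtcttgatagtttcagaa
Tcf7, chr11:52282546-52282845, minus strand: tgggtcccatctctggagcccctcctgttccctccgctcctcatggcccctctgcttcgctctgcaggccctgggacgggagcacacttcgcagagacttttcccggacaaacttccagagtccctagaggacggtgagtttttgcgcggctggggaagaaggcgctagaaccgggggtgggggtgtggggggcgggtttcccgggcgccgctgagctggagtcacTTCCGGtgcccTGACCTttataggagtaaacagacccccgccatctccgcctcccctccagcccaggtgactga
Searched on both strands, the ETS core was in 3 of the 9 windows (Gata3, Gfi1 and Tcf7) and in 14.9% of all 32851 windows. The ROR core was in 2 (Nfil3 and Tcf7; 16.3% of all windows), and the TCF/LEF core CTTTGA in 1 (Bcl11b; 16% of all windows). The E-box CANNTG was in 7 of 9 windows, against 72.3% of all windows. The GATA core AGATAA (11.2% of all windows) and the NFIL3 site TTANNTAA (6%) were in none of the 9 windows.

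Libraries held 11433625 to 32529806 estimated reads. In the replicate 3 library of Rag1 KO at 8 weeks 24.5% of reads fell on the top 10 genes, while in the other 11 that share was 8.85% to 15.03%. In a principal component analysis of all tested genes that library lay apart on the second component (17.3% of variance). WT replicate 2 of 8 weeks, the shallowest, lay apart on the first (24.2%). Replicate 1 of Rag1 KO at 8 weeks lay at the other end of the second component (-61.4, against 92.2 for replicate 3). It is not counted below among the 2 libraries that stand apart. Rag1 itself goes against the labels on its face, in few reads, and whether the knockout allele can still yield reads was not tested. It had 10.8 to 18.4 estimated reads at 20 weeks and 0 to 14.5 at 8 weeks in libraries labelled Rag1 KO. In all 6 libraries labelled WT it had 0. Rag1 was not called between genotypes at either time or averaged (averaged log2 fold change 6.53, SE 1.45, adjusted p = 0.377, edgeR). Thy1, whose CD90.1 allele marks the WT donors, was called as higher in knockout-labelled libraries at both times (averaged log2 fold change 2.63, SE 0.25, adjusted p = 0.000463, edgeR). The part of missed reads of the donor allele in this difference was not tested. The genotype labels were used as given, and if they were exchanged, every genotype difference below would change sign. All 9 ILC2 markers had a median above 1 TPM, led by Klrg1 (810 to 1536 TPM). Of the 13 T cell markers, 7 had a median above 1 TPM: Trbc2 (1027 TPM), Lck (99.1), Zap70 (88.5), Cd3g (60.5), Cd247 (8.26), Trac (6.68) and Cd3d (2.76). The other 6 were Cd28 (median 0.804 TPM), Cd4 (0.532), Cd8a (0.363), Cd3e (0.311), Cd8b1 (0.0827) and Cd5 (0). The list summed to 1125 to 1421 TPM in knockout-labelled and 1416 to 1706 TPM in WT libraries at 20 weeks, and to 727 to 1231 TPM in knockout-labelled and 1181 to 1380 TPM in WT libraries at 8 weeks, most of it Trbc2 (555 to 1387 TPM). Gata3, Tcf7, Bcl11b, Tox and Maf are also used by T cells, and the part of such cells in their values was not tested. The neutrophil list summed to at most 0.443 TPM, with Ly6g and S100a9 at 0 in all 12 libraries.

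Levels of different genes are compared in TPM, which accounts for transcript length. Id2 was the most abundant member, with a median of 2724 TPM over the 12 libraries (range 1620 to 4000.1), and its rank among all genes was 20 at best and 90 at worst. Gata3 followed with a median of 414 TPM (241 to 508), below Id2 in all 12 libraries. Tox (median 106 TPM), Maf (91.3), Tcf7 (75.5) and Rora (70.2) came next, and the ranges of neighbours in this order overlapped, so these 4 could not be ranked beyond their spread. All 4 lay below Gata3 and above Bcl11b in every library. Bcl11b had a median of 9.72 TPM, Nfil3 of 7.15 TPM and Gfi1 of 3.49 TPM. The range of Nfil3 (3.74 to 9.03 TPM) overlapped those of both others, although Nfil3 lay above Gfi1 in each of the 12 libraries, and the ranges of Bcl11b (5.60 to 15.97 TPM) and Gfi1 (2.54 to 4.81 TPM) did not overlap. Zbtb16 was the lowest member, with a median of 0.278 TPM (0.0697 to 0.779) from 6.71 to 55.6 estimated reads per library.

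**Figure D1:**
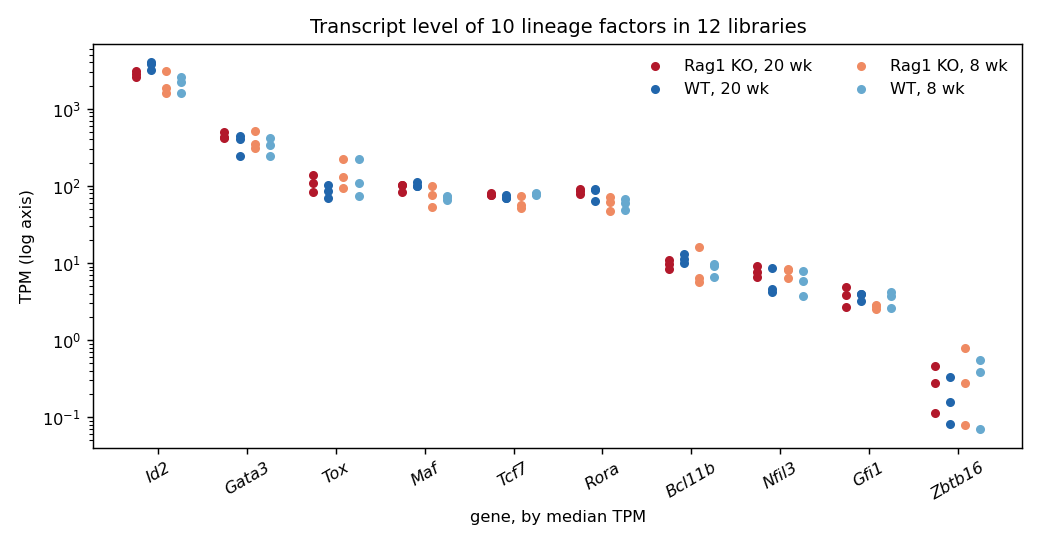
Transcript level (TPM, log axis) of the 10 factors, ordered by median; each point is 1 library, and colours give the 4 groups as labelled. Id2 lies above Gata3 in all libraries, 4 genes with medians of 70.2 to 106 TPM overlap, and Zbtb16 lies below all others.

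The first comparison asks whether ILC2s that developed without Rag1 differ from WT ILC2s in these factors. No member was called between genotypes at a Benjamini-Hochberg adjusted p under 0.05 (edgeR's quasi-likelihood test over 14431 genes). This held at 20 weeks (0 of 10 members; background 0.0554% of all genes called), at 8 weeks (0 of 10; background 0.201%) and averaged over both times (0 of 10; background 0.222%). At an unadjusted p under 0.05, 0 members passed in each of the 3, where 2.08%, 3.62% and 3.71% of all genes did, in that order. DESeq2 and limma-voom also called 0 members in each of these. With backgrounds this low, a count of 0 among 10 genes is near that of genes at large. In bulk samples, fewer cells of a type and less RNA per cell cannot be told apart.

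Among the factors that specify and maintain ILC2s, Gata3 (ENSMUSG00000015619, chromosome 2, 9857078 to 9890034, GRCm38) had 860.5, 1070.3 and 946 CPM (counts scaled to library size with TMM factors, replicates 1 to 3) in knockout-labelled and 893, 933 and 554 CPM in WT libraries at 20 weeks. At 8 weeks it had 894, 785 and 1357 CPM in knockout-labelled and 844, 1182 and 614 CPM in WT libraries. The WT library numbered 3 was the lowest of the 6 at either time, and the genotypes overlapped at both. Averaged over times, the log2 fold change of 0.24 (SE 0.21, edgeR's adjusted p = 1) had a 95% interval of 0.864-fold to 1.61-fold. Without the 4 libraries numbered 3, an alternative chosen after this was seen, it was -0.10 (adjusted p = 1, edgeR). The size of the difference moved with other choices too: it was 0.48 with the number of computing threads recorded in each file header as a covariate (adjusted p = 0.684, edgeR), 0.37 without WT replicate 2 of 8 weeks and 0.11 without replicate 3 of Rag1 KO at 8 weeks. It was 0.13 without WT replicate 3 of either time, and Gata3 was not called in any of these fits.

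Rora (ENSMUSG00000032238, chromosome 9, 68653786 to 69388246) had 223, 244 and 247 CPM in knockout-labelled and 257, 243 and 231 CPM in WT libraries at 20 weeks, and 202, 190.1 and 193 CPM in knockout-labelled and 148, 172 and 235 CPM in WT libraries at 8 weeks. The genotypes overlapped at both times, and the averaged log2 fold change of 0.02 (SE 0.13, adjusted p = 1, edgeR) had a 95% interval of 0.836-fold to 1.23-fold. Bcl11b (ENSMUSG00000048251, chromosome 12, 107910403 to 108003602) had 53.1, 63.0 and 49.9 CPM in knockout-labelled and 59.98, 74.0 and 73.7 CPM in WT libraries at 20 weeks. At 8 weeks it had 39.7, 44.1 and 111 CPM in knockout-labelled and 43.4, 72.0 and 61.2 CPM in WT libraries. Its highest value, 111 CPM, was in the knockout-labelled library that stands apart, and the averaged log2 fold change was -0.09 (SE 0.24). Gfi1, a zinc finger repressor (ENSMUSG00000029275, chromosome 5), ran from 5.27 to 8.67 CPM in knockout-labelled and from 6.20 to 9.38 CPM in WT libraries, and its averaged log2 fold change was -0.18 (SE 0.19).

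Among the early factors, Tcf7 (ENSMUSG00000000782, chromosome 11, 52252371 to 52283014) had 134, 133 and 138 CPM in knockout-labelled and 135, 120.3 and 135 CPM in WT libraries at 20 weeks. At 8 weeks it had 123, 107 and 157 CPM in knockout-labelled and 155, 169 and 161 CPM in WT libraries, so 2 of 3 knockout-labelled libraries lay below all WT ones and the third inside their range. It was the least variable member: the SD within groups was 0.15 on the log2 scale, at the 3rd percentile of all tested genes, and the 95% interval of its averaged difference was 0.763-fold to 1.09-fold (log2 fold change -0.14, SE 0.12). Nfil3 (ENSMUSG00000056749, chromosome 13) had 12.4, 9.53 and 11.5 CPM in knockout-labelled and 12.6, 6.58 and 6.63 CPM in WT libraries at 20 weeks, and 11.2, 14.03 and 14.4 CPM in knockout-labelled and 13.2, 6.82 and 9.87 CPM in WT libraries at 8 weeks. At each time WT replicates 2 and 3 lay below all knockout-labelled libraries, while WT replicate 1 lay above them at 20 weeks and among them at 8 weeks. Its averaged log2 fold change of 0.38 (SE 0.22, adjusted p = 1, edgeR) was the largest in size among the 10.

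Id2 (ENSMUSG00000020644, chromosome 12, 25093799 to 25097140) had 2426, 2758.5 and 2439.6 CPM in knockout-labelled and 2885, 3385 and 3995 CPM in WT libraries at 20 weeks. At 8 weeks it had 1779.9, 1947 and 3277 CPM in knockout-labelled and 2315, 1833 and 2708 CPM in WT libraries. All 3 knockout-labelled libraries of 20 weeks lay below the 3 WT ones, while at 8 weeks the groups overlapped. Maf (ENSMUSG00000055435, chromosome 8, 115682942 to 115707794) showed the same arrangement, with 284, 308 and 279 CPM in knockout-labelled and 309.6, 341 and 366 CPM in WT libraries at 20 weeks. It had 184, 244 and 364 CPM in knockout-labelled and 236, 207 and 255 CPM in WT libraries at 8 weeks. Id2 and Maf were the 2 of 10 members whose genotypes did not overlap at 20 weeks, where 11.4% of all genes did not; at 8 weeks the count was 0 of 10 (background 5.63%). Neither difference at 20 weeks passed the test (Id2 log2 fold change -0.43, SE 0.25; Maf -0.22, SE 0.22; adjusted p = 1 for each, edgeR), and neither did the genotype by time interaction of any member (0 of 10; background 0.097%, and 0 at an unadjusted p under 0.05, where 2.18% of all genes passed). With both times pooled, the genotypes overlapped for all 10 members (0.36% of all genes did not overlap).

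Tox, an HMG-box factor (ENSMUSG00000041272, chromosome 4, 6686353 to 6991557), had 308, 269.5 and 207 CPM in knockout-labelled and 224, 259.6 and 209 CPM in WT libraries at 20 weeks. At 8 weeks it had 299, 403 and 630.0 CPM in knockout-labelled and 345, 666 and 226 CPM in WT libraries. Its 2 highest values belonged to the 2 libraries that stand apart, and the averaged log2 fold change between genotypes was 0.14 (SE 0.26). Zbtb16 (ENSMUSG00000066687, chromosome 9, 48654297 to 48836222) had 55.6, 13.97 and 24.9 estimated reads in knockout-labelled and 9.33, 30.7 and 8.90 in WT libraries at 20 weeks, and 9.78, 24.9 and 41.8 in knockout-labelled and 6.71, 18.1 and 38.4 in WT libraries at 8 weeks. At this depth only large differences were detectable: its 95% interval ran from 0.483-fold to 3.34-fold (log2 fold change 0.34, SE 0.64). Zbtb16 lies 4.61 Mb from Thy1, whose CD90.1 allele marks the WT donors and whose level differed between genotypes (log2 fold change 2.63, SE 0.25, adjusted p = 0.000463, edgeR), and Rora lies 24.6 Mb from it.

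**Figure D2:**
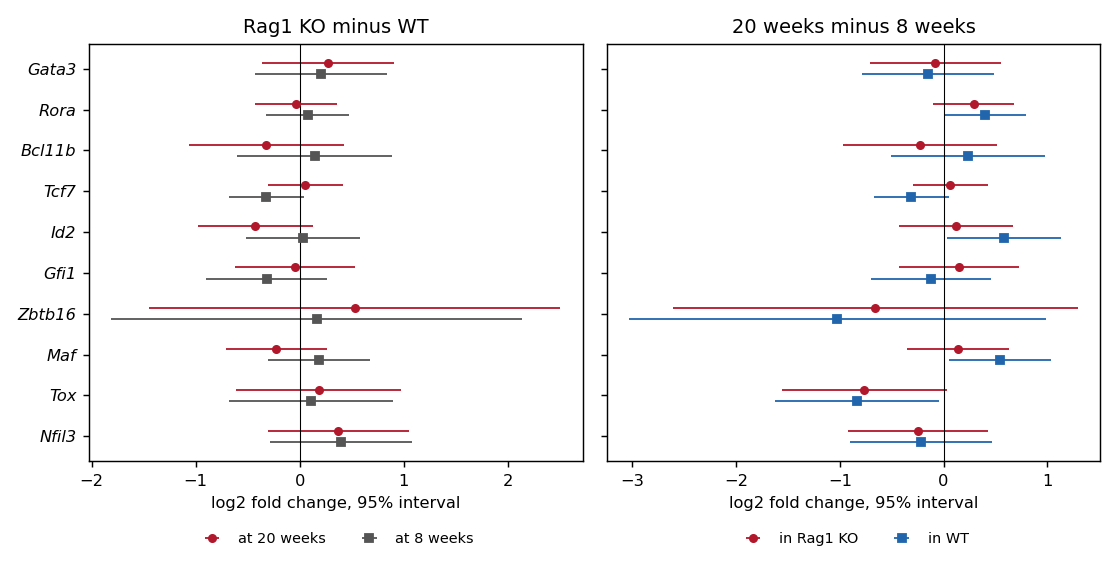
Log2 fold change of each factor with its 95% interval from the edgeR fit, Rag1 KO minus WT as labelled (left) and 20 weeks minus 8 weeks (right). All 20 genotype intervals include 0; in WT the time intervals of Rora, Id2, Maf and Tox do not, although none of the 4 passed after adjustment.

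The second comparison sets 20 weeks against 8 weeks after transplant. No member was called in libraries labelled Rag1 KO (0 of 10; background 0.0624%), in WT (0 of 10; background 0.513%) or averaged over genotypes (0 of 10; background 2.9%). At an unadjusted p under 0.05, 4 of 10 members passed in WT, namely Maf, Id2, Tox and Rora, where 13.3% of all genes did, and 0 of 10 passed in knockout-labelled libraries, where 8.33% did. Averaged over genotypes 2 of 10 passed, Tox and Rora, where 18.6% of all genes did, a share close to that background. DESeq2 called 1 member averaged over genotypes, Tox, and 0 within either genotype. With genotypes pooled, the 2 times overlapped for all 10 members (4.09% of all genes did not overlap). Dates of harvest or sequencing are not in the labels, and an effect of time and one of batch cannot be told apart. Each time comparison uses the same libraries as the genotype comparisons.

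Tox averaged 262 ± 51.1 CPM at 20 weeks against 444 ± 169 CPM at 8 weeks in knockout-labelled libraries, and 231 ± 25.9 CPM at 20 weeks against 412 ± 228 CPM at 8 weeks in WT (SD, n = 3 each). Averaged over genotypes this was -0.80 on the log2 scale (SE 0.26, edgeR's adjusted p = 0.117; 95% interval 0.390-fold to 0.849-fold). It was negative under all 20 alternatives (-0.95 to -0.36) with adjusted p of 0.0320 to 0.331, the lowest with DESeq2, under which Tox was called as lower at 20 weeks. The size rests in part on the libraries that stand apart: it came to -0.53 when WT replicate 2 of 8 weeks was left out, to -0.63 when replicate 3 of Rag1 KO at 8 weeks was, and to -0.36 when both were (adjusted p = 0.200 for the last, edgeR). Without WT replicate 3 of 8 weeks, the lowest 8-week library at 226 CPM, it was -0.95 (adjusted p = 0.0370, edgeR).

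Rora averaged 238 ± 12.9 CPM at 20 weeks against 195 ± 6.17 CPM at 8 weeks in knockout-labelled libraries, where the 2 times did not overlap (1 of 10 members; background 16.4%). In WT it averaged 244 ± 12.6 CPM at 20 weeks against 185 ± 44.9 CPM at 8 weeks, with overlap through replicate 3 of 8 weeks (235 CPM). Averaged over genotypes the difference was 0.34 on the log2 scale (SE 0.13, edgeR's adjusted p = 0.172), and without that replicate it was 0.45 (adjusted p = 0.0409, edgeR). Without WT replicate 1 of 8 weeks, the lowest library at 148 CPM, it was 0.27 (adjusted p = 0.315, edgeR). These 2 values are the ends of the range over the 20 alternatives. The 95% interval of the fit on all libraries, not adjusted for the number of genes, was 1.05-fold to 1.54-fold.

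Id2 averaged 2541 ± 188 CPM at 20 weeks against 2335 ± 821 CPM at 8 weeks in knockout-labelled libraries, and 3422 ± 556 CPM at 20 weeks against 2285 ± 438 CPM at 8 weeks in WT (SD, n = 3 each). Maf averaged 290.2 ± 15.4 CPM at 20 weeks against 264 ± 91.3 CPM at 8 weeks in knockout-labelled libraries, and 339 ± 28.5 CPM at 20 weeks against 232 ± 24.2 CPM at 8 weeks in WT. In WT, Id2 and Maf were above and Tcf7 below all 8-week values in all 3 libraries of 20 weeks (3 of 10 members without overlap; background 19.3%). The averaged log2 fold changes were 0.35 (SE 0.18, adjusted p = 0.316) for Id2 and 0.34 (SE 0.16, adjusted p = 0.276) for Maf, in edgeR. In knockout-labelled replicate 3 of 8 weeks both genes were at the level of the 20-week WT libraries; without it the log2 fold change was 0.52 for Id2 (adjusted p = 0.0504) and 0.49 for Maf (adjusted p = 0.0403), in edgeR. Without both libraries that stand apart both genes were called (Id2 0.45, adjusted p = 0.0370, and Maf 0.46, adjusted p = 0.0326, edgeR). Knockout-labelled replicate 1 of 8 weeks was the lowest library for both genes. Without it the log2 fold change was 0.26 for Id2 (adjusted p = 0.443) and 0.23 for Maf (adjusted p = 0.395), in edgeR. Over the 20 alternatives it ran from 0.26 to 0.53 for Id2 and from 0.23 to 0.51 for Maf.

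**Figure D3:**
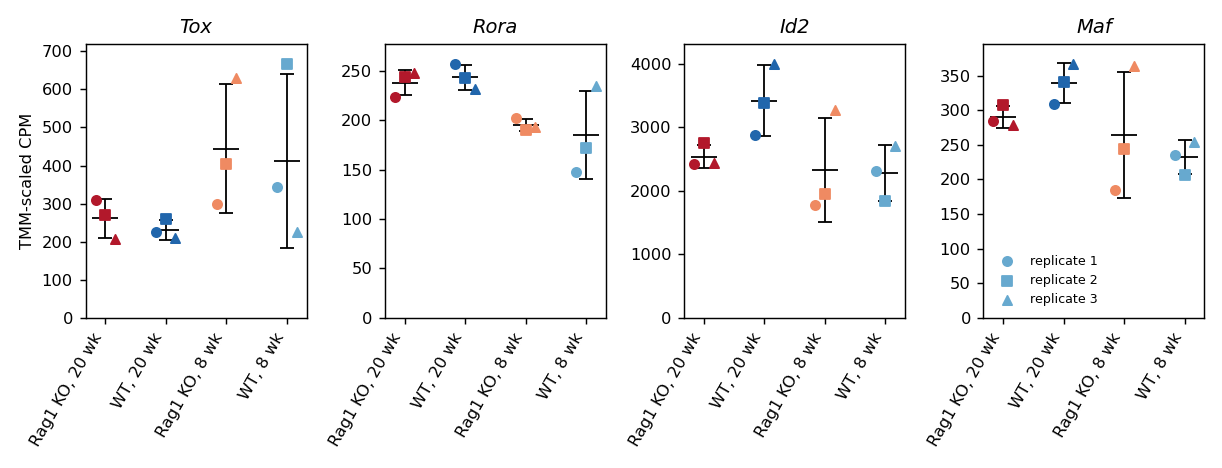
TMM-scaled CPM of Tox, Rora, Id2 and Maf in the 4 groups as labelled, with 1 point per library (shape gives the replicate number) and bars for mean and SD (n = 3). The 8-week groups spread wider than the 20-week groups for Tox, where 2 libraries reach 630.0 and 666 CPM.

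The 95% interval of the averaged time difference included no change for 8 of the 10 members, Id2 and Maf among them, and excluded it for Tox and Rora. Bcl11b had a log2 fold change of 0.00 (SE 0.24), Gfi1 of 0.01 (SE 0.19), Gata3 of -0.11 (SE 0.21), Tcf7 of -0.12 (SE 0.12) and Nfil3 of -0.23 (SE 0.22). Zbtb16 had the largest estimate in size and the widest error (-0.84, SE 0.64). The median over the 10 members was -0.06, beside 0.02 over all tested genes. Between genotypes the averaged median was 0.00 for the members and 0.01 for all tested genes.

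Across the 12 libraries, Id2 and Maf varied together more closely than any other of the 45 member pairs. The correlation of log2 CPM was r = 0.935 (Spearman's rho 0.958), 0.913 without the 2 libraries farthest from the median, and 0.931 after group means were removed. Rora and Tox ran opposite (r = -0.711, rho -0.832, -0.828 without the 2 farthest libraries, -0.50 within groups). Bcl11b had r = 0.684 with Maf (0.439 without the 2 libraries farthest from the median, 0.777 within groups) and r = 0.662 with Id2 (0.542 and 0.697 in the same order). Gata3 and Tox had r = 0.663 but a rho of 0.343, and r was 0.431 without the 2 libraries farthest from the median and 0.758 within groups. These values describe 12 libraries, each scaled as a whole, and carry no test. Among all tested genes with a mean of at least 10 CPM, Id2 was the gene most like Maf. The gene most like Id2 was Zfp874b (r = 0.980), and those most like Tox were Otub1 (0.984), Txnl4b (0.983) and its relative Tox4 (0.978). Gata3 was most like Mta2 (0.913), which encodes a subunit of the NuRD chromatin remodeller, Rora most like 6820431F20Rik (0.936) and Bcl11b most like Ankhd1 (0.944). Tcf7 (Dync1li1, 0.820), Gfi1 (Ube2q2, 0.778), Nfil3 (Gpatch1, 0.898) and Zbtb16 (Atf1, 0.887) had their nearest genes at lower values. All nearest genes are the highest among 7952 genes, and their values were not recomputed without any library. For Tox, the 2 libraries that stand apart held the 2 highest values (630.0 and 666 CPM).

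**Figure D4:**
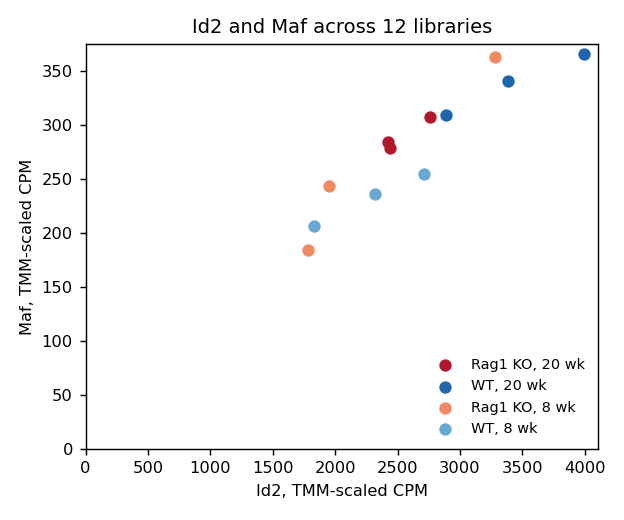
TMM-scaled CPM of Id2 (x axis) and Maf (y axis), with 1 point per library and colours for the 4 groups as labelled. The points fall along 1 line (r = 0.935 on log2 CPM over 12 libraries), with all 20-week WT libraries at the upper right beside knockout-labelled replicate 3 of 8 weeks.

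At transcript level no member transcript was called between genotypes (background 0.0596% of 35236 transcripts) or between times (background 0.15%). The short-start transcript Rora-202, whose sequence is given above, held 74.1% to 87.0% of Rora TPM in every library, and the long-start Rora-201 10.2% to 25.6%. The annotated start of Rora-202 lies 635.9 kb downstream of that of Rora-201, so the RefSeq promoter window of Rora belongs to the minor transcript by TPM. In estimated reads Rora-201, the longer transcript, led in WT replicate 3 of 20 weeks (1803 against 1405) and knockout-labelled replicate 3 of 8 weeks (1400 against 961). Rora-202 led in the other libraries. Of the 20-base words of Rora-202, 14.2% occur in no other transcript of the gene. Rora-206 held 12.6% of Rora TPM in knockout-labelled replicate 1 and 10.7% in WT replicate 2 of 8 weeks, above Rora-201 in both. These shares rest on 163 and 42.6 estimated reads, and Rora-206 was at 0 in 7 libraries. Only 2.32% of its 20-base words occur in no other transcript of the gene, so its level is uncertain. The share of Rora-202 was 83.6% ± 2.10 in knockout-labelled and 80.1% ± 3.26 in WT libraries at 20 weeks, and 79.4% ± 6.72 in knockout-labelled and 81.9% ± 3.56 in WT libraries at 8 weeks (SD, n = 3 each). These group means differ by less than the widest SD.

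Maf-202, with the short coding end, took 28.2%, 32.8% and 38.7% of Maf TPM in knockout-labelled and 35.1%, 34.9% and 44.9% in WT libraries at 20 weeks. At 8 weeks it took 23.6%, 17.5% and 34.8% in knockout-labelled and 19.3%, 10.05% and 33.9% in WT libraries. The 20-week WT libraries lay above the 8-week WT ones, and the knockout-labelled times overlapped. The log2 fold change with time was 0.81 for Maf-202 (SE 0.32, adjusted p = 0.316) and -0.03 for Maf-201 (SE 0.14, adjusted p = 0.956), by edgeR over transcripts; the difference between the 2 transcripts was not tested. Of the 20-base words of Maf-202, 78.8% occur in no other transcript of the gene, and of Maf-201 58.6%.

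Gata3-201 held 87.9% to 96.8% of Gata3 TPM. Gata3-204, a non-coding transcript that starts 9.18 kb upstream, held 2.96% to 11.5%, with a log2 fold change with time of 0.65 (SE 0.23, adjusted p = 0.261, edgeR over transcripts). Gata3 is the only member that overlaps other genes in the files, 4930412O13Rik on the opposite strand (20.0 to 173 reads) and 9230102O04Rik on the same strand (38.0 to 199 reads), against at least 7689 reads for Gata3; whether counting used strand is not stated. Tox-201, the coding transcript, held 67.2% to 93.6% of Tox TPM, and in WT replicate 2 of 8 weeks the retained-intron transcript Tox-203 held 30.8%. Tox-201 had a log2 fold change with time of -0.75 (SE 0.24, adjusted p = 0.214, edgeR over transcripts), close to that of the gene. Tcf7-201 held 84.8% to 100% of Tcf7 TPM; the lowest value was again in WT replicate 2 of 8 weeks, where Tcf7-202 held 15.2%. Both annotated Tcf7 transcripts carry the same 912 coding bases. All Bcl11b reads were assigned to Bcl11b-201. Gfi1-202 and Gfi1-203 have 0 words of 20 bases that tell them apart from the gene's other transcripts, so their split could not be read. Id2 shares 8.55% of its words with other genes, most with Gm6175, which makes its reads slightly less certain than those of the other members.

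**Figure D5:**
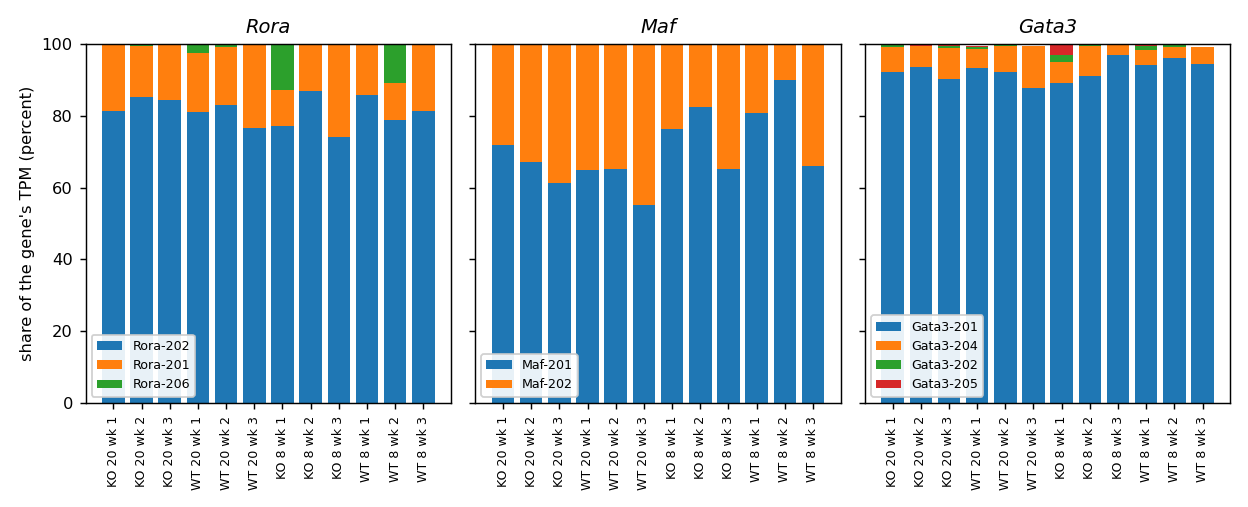
Share of each gene's TPM (percent) held by its transcripts in the 12 libraries, grouped as labelled, for Rora, Maf and Gata3; transcripts under 2% in every library are not drawn. Rora-202 and Gata3-201 lead in all libraries, and Maf-202 ranges from 10.05% to 44.9%.

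The genes that work around these factors were read from 6 lists. Among 26 other transcription factors of ILCs and type 2 lymphocytes, 1 was called as higher and 0 as lower between genotypes averaged over times, where 0.222% of all genes were called in either direction. It was Ets1, a factor needed for ILC2 development, with 1870 ± 417 CPM in knockout-labelled and 1009 ± 112 CPM in WT libraries at 20 weeks, and 3060.0 ± 2460 CPM in knockout-labelled and 182 ± 3.61 CPM in WT libraries at 8 weeks (SD, n = 3 each). Its averaged difference was 2.48 on the log2 scale (SE 0.32, edgeR's adjusted p = 0.00400). By time, Ets1 was called at 8 weeks (4.07, SE 0.48, adjusted p = 0.00314, edgeR) and not at 20 weeks (0.89, SE 0.43). In WT it was also called as higher at 20 than at 8 weeks (2.47, SE 0.45, adjusted p = 0.0344, edgeR). The interaction of Ets1 was not called (-3.18, SE 0.62, adjusted p = 0.144, edgeR). The distance of Ets1 from Thy1 was not computed, and whether its genotype difference is linked to that donor-marked locus was not tested. With time averaged over genotypes 2 of the 26 were called (background 2.9%). Irf4, a factor of activated lymphocytes, was higher (log2 fold change 0.79, SE 0.16, adjusted p = 0.0256, edgeR) and Klf6 was lower (-0.88, SE 0.15, adjusted p = 0.0160, edgeR). Irf4 had 29.7 ± 1.15 CPM at 20 weeks against 21.5 ± 1.84 CPM at 8 weeks in knockout-labelled libraries and 32.4 ± 4.51 CPM against 14.8 ± 4.65 CPM in WT. The list's median was 0.01, beside 0.02 for all genes. Ikzf2, which encodes Helios, had a log2 fold change of 0.68 between genotypes (SE 0.29, adjusted p = 1, edgeR), and Bach2 of 0.67 (SE 0.42).

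Of 20 tested paralogs of the members (of 29 listed), 0 were called between genotypes averaged over times (background 0.222%), and 1 was called with time (background 2.9%), Hlf, a PAR bZIP factor related to NFIL3 that binds like sites. Hlf had 69.7 ± 4.67 CPM at 20 weeks against 38.6 ± 2.45 CPM at 8 weeks in knockout-labelled libraries, and 71.9 ± 4.50 CPM at 20 weeks against 35.8 ± 3.55 CPM at 8 weeks in WT (log2 fold change 0.93, SE 0.11, adjusted p = 0.00123, edgeR). All 6 libraries of 20 weeks were above all 6 of 8 weeks. Tox2 had a log2 fold change of 0.81 between genotypes (SE 0.28, adjusted p = 1, edgeR). Rorb had 0 reads in all 6 libraries of 8 weeks and at most 31.1 at 20 weeks, and Bcl11a had 0 in all 3 WT libraries of 8 weeks and at most 19.8 elsewhere.

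E proteins and other Id genes, on which ID2 acts or whose role it shares, had 4 of 6 members tested and 0 called between genotypes or times, averaged over the other factor. Tcf12, which encodes the E protein HEB, had a log2 fold change with time of 0.46 (SE 0.17) and Id3 of 0.46 (SE 0.37). Among factors of other ILC types, 5 of 6 were tested and 0 called (same backgrounds). Tbx21, the type 1 factor, had 0 reads in 1 of 3 libraries of each group and at most 57.2 reads in any. Of 17 protein partners of the members (corepressors and remodellers), 0 were called (same backgrounds). Zfpm1, which encodes the GATA partner FOG-1, had at most 14.7 reads in any library.

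Among 14 receptors and effectors that depend on GATA3 or RORα in ILC2s in other studies, 0 were called between genotypes (background 0.222%) and 2 were called, both as lower, with time averaged over genotypes (background 2.9%). Il13, a type 2 cytokine, had 8.26 ± 1.25 CPM at 20 weeks against 23.8 ± 11.9 CPM at 8 weeks in knockout-labelled libraries and 10.7 ± 0.609 CPM against 14.3 ± 2.79 CPM in WT (log2 fold change -0.98, SE 0.23, adjusted p = 0.0439, edgeR). Areg, which encodes the growth factor amphiregulin, had 1.83 ± 0.714 CPM at 20 weeks against 4.56 ± 0.505 CPM at 8 weeks in knockout-labelled libraries and 1.28 ± 0.413 CPM against 4.56 ± 1.10 CPM in WT (-1.57, SE 0.28, adjusted p = 0.0163, edgeR). Il7r, the IL-7 receptor gene, had a log2 fold change with time of 0.60 (SE 0.17) and was not called (adjusted p = 0.0791, edgeR). The median of the list was 0.03 with time, beside 0.02 for all tested genes.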

How the data were processed

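RNA was measured in 12 libraries, 4 groups of 3. The authors deposited 1 table per library with an expected count (estimated number of reads) and a TPM value for every transcript, per the file headers from sailfish 0.6.3 with 20-base words and Ensembl release 76. Tools in the submitters' processing notes (STAR 2.0.4b, featureCounts 1.4.5, Subread, bcl2fastq) do not include sailfish, and strand is not stated. GENCODE M21 (GRCm38) held 83739 (97.2%) of the 86127 transcripts, which were summed to 29542 genes. Expected counts were rounded, filtered with filterByExpr and fitted for 14431 genes with edgeR 4.0.16 (TMM factors, quasi-likelihood test on 4 group means, R 4.3.3); p-values in 7 contrasts were adjusted over all tested genes. SE is the log2 fold change divided by the root of the test's F. Transcripts were fitted the same way. Alternatives used RLE factors, DESeq2 1.42.0, limma 3.58.1 (voom), no filter, counts scaled from deposited TPM, a replicate block, the threads recorded per header (8 or 24) as a covariate, and subsets of libraries. The fit was tested on simulated data.

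All members are named. Of the other lists, genes past the threshold are named, and only some of those with the largest averaged genotype and time changes. For likeness, the 3 nearest genes were computed. The members, lists and tests were chosen with earlier results of these data known. A word-based estimate can miss reads that carry donor-strain variants, and reads shared by related genes are divided by the model. Replicate numbers did not count as pairing, since labels do not tie them to an animal or day.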

Additional observations from a re-analysis of the deposited data

How the results depend on the processing

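Between genotypes, and in the interaction, 0 members were called under every alternative that could be fitted, the replicate block included (0 members called in the 4 genotype contrasts, where it called 4, 15, 19 and 9 genes, against 8, 29, 32 and 14 without it, at 20 weeks, at 8 weeks, averaged and in the interaction). Same-numbered libraries deviated together at r over 0.1 in 4 of 6 pairs, and 9 of 12 libraries correlated best with their own number. Time contrasts could not be fitted with the block, averages and interactions not on the compared libraries alone. For time averaged over genotypes the count of members called was 0 in the fit reported, 1 with DESeq2 (Tox), 2 with both libraries that stand apart left out (Id2 and Maf), and 0 to 2 when single libraries were left out; it was 0 under the other alternatives. The cause was not tested. Genes called in that contrast, on which its background of 2.9% rests, numbered 419, 77 to 927 when single libraries were left out, and 75 to 1227 under the other alternatives. Of 1500 member fold changes under alternatives, 118 changed sign, each uncalled in both fits. The fits on libraries of 8 threads and without those numbered 3 were chosen after seeing the data. Depth limits Zbtb16, at 6.71 to 55.6 reads a library.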
